A study of Drosophila melanogaster with 2 samples.

Results

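The genes described here are 10 of the 13968 protein-coding genes in the annotation: Trl, Adf1, Dref, psq and lola, which encode factors that bind promoter DNA, BEAF-32, CTCF and su(Hw), which encode proteins that bind insulator DNA, and Cp190 and mod(mdg4), which encode insulator partners. They were chosen by the function of their products and with the pooled peak signals of these libraries already known. The signals at the members are therefore a description, and no test was made on them. The measurement was chromatin immunoprecipitation with sequencing (ChIP-seq) of Taf1 in whole Drosophila melanogaster embryos collected from 0 to 24 h. Every sample came from flies of the Taf1-GFP strain, which carries an insertion targeting Taf1 and makes a Taf1-eGFP fusion protein, and the precipitation used an antibody against GFP. There was 1 group of 2 biological replicates, both labelled with the same donor strain, and no treated or mutant embryos. The labels do not give the promoter that drives the fusion. Whole embryos of mixed age were pooled, so a strong site in few cells and a weak site in many cells cannot be told apart.

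Taf1 is a subunit of TFIID, the complex that recognises core promoters and helps to place RNA polymerase II at transcription start sites. Factors such as the GAGA factor and Dref bind short sequence motifs at promoters, and insulator proteins bind boundary elements, often close to the promoters of housekeeping genes, where they recruit Cp190 and mod(mdg4) proteins. The genes of such factors have promoters of their own, and the peak lists show where Taf1 was found at them.

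In the larger pooled list of peaks, 4 of the 10 genes had a Taf1 summit in a promoter window, against 13.2% of all protein-coding genes. A gene body summit was present at 3 of the 10, against 8.08%. The genes held 9 summits in that list, of which 4 were in a promoter window. A gene was counted at its promoter when a peak summit lay within 500 bp of one of its annotated transcription start sites (TSSs), and in its gene body when a summit lay between the annotated ends of the gene. Trl, Cp190, BEAF-32 and psq had a promoter summit, and Trl, Adf1 and mod(mdg4) had a gene body summit. CTCF, su(Hw), Dref and lola had none in that list. Of the 24 distinct annotated starts of the 10 genes, 4 had a summit within 500 bp. The same share over all protein-coding starts was not worked out. A gene with more starts has more windows in which a summit can fall, and the share over all genes does not allow for this. Among the members psq has 5 starts, and Trl and lola have 4 each.

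In the other thresholded lists the promoter counts ran from 3 to 5 genes and the gene body counts from 2 to 5, with partly different genes. In the conservative pooled list 3 genes had a promoter summit (11.4% of all protein-coding genes) and 4 had a gene body summit (6.96%). In the thresholded list of replicate 1, 3 genes had a promoter summit against 7.23% of all genes, and 2 had a gene body summit against 4.5%. In that of replicate 2, 5 genes had a promoter summit against 10.6%, and 5 had a gene body summit against 6.55%. Trl, Adf1 and Cp190 were present in all 4 thresholded lists, whereas CTCF and su(Hw) were in none of them. The relaxed ranked lists keep peaks of any reproducibility. They held a promoter summit for 7 genes in the larger pooled list (56.6% of all protein-coding genes), 7 in replicate 1 (49.7%) and 8 in replicate 2 (64.2%). A peak in a relaxed list thus sets the members little apart from other genes. The ranked lists of the replicates also differ in reach. That of replicate 1 held 33381 peaks with a lowest signal of 11.33, and that of replicate 2 held 94109 with a lowest signal of 2.0.

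The 9 summits in the larger pooled list had authors' signals from 79.01 to 979.8, against a median of 90.65 and a highest value of 1506.0 among all peaks of that list. The signal is the authors' value, its scale is not stated, and the number of reads behind it is unknown. Of these summits, 5 were intronic, 1 was in a 5′ UTR and 3 were outside the gene, upstream of its start. The 2 strongest were both intronic and both outside the promoter window of their own gene, at Adf1 and Trl. The strongest summit of any promoter window was that of Cp190, at 245.5.

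**Figure D1:**
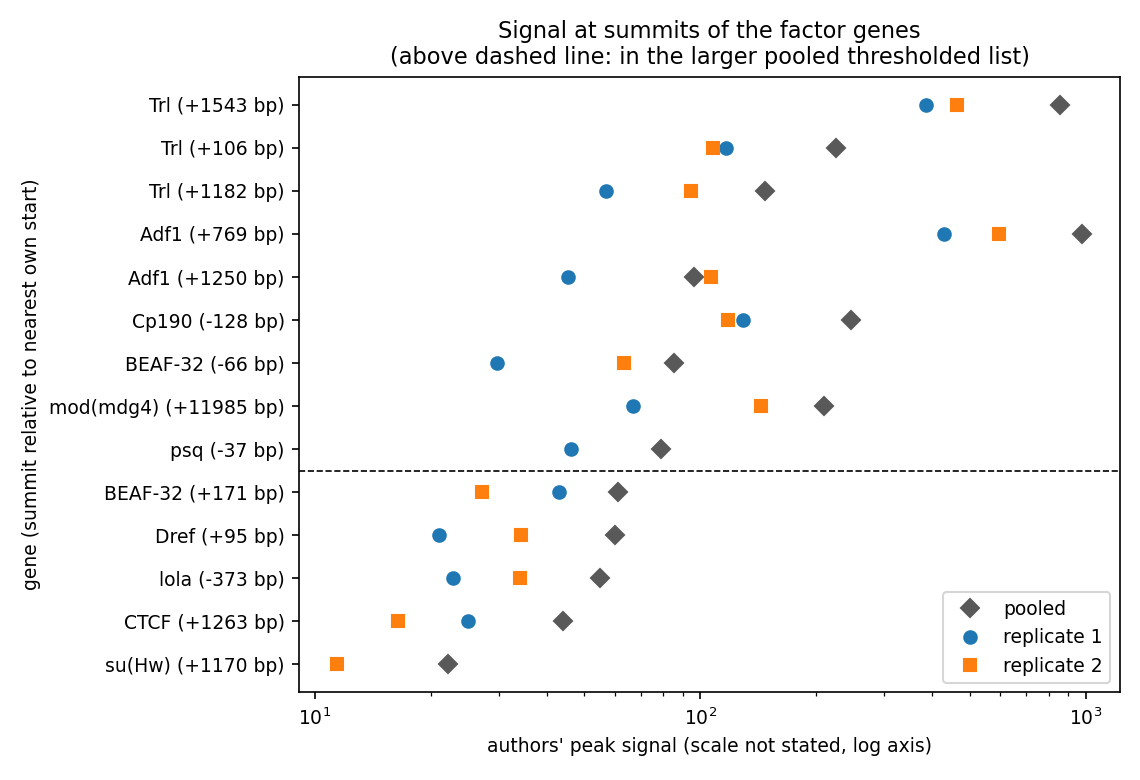
The authors' peak signal (log axis) at the summits of the factor genes is shown for the pooled reads (grey diamonds) and each replicate (blue circles and orange squares), with 1 line per summit, labelled by its distance from the nearest start of the gene. Adf1 and Trl have the highest pooled signals, at 979.8 and 856.9, and the peaks under the dashed line, down to su(Hw) at 22.12, are not in the larger pooled thresholded list.

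**Figure D2:**
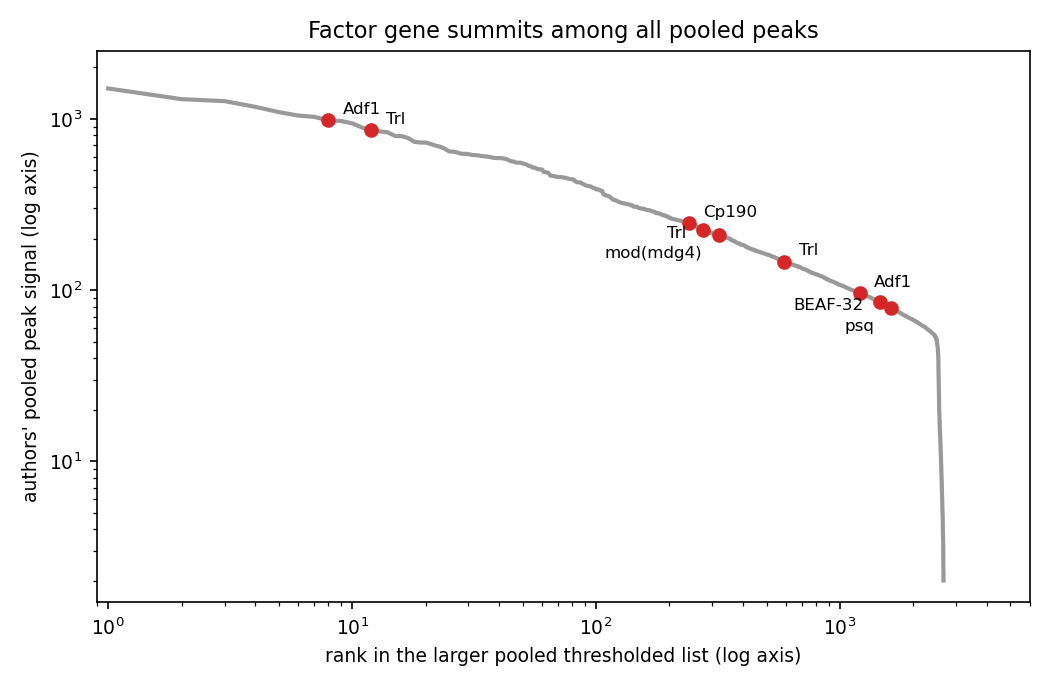
All peaks of the larger pooled list are drawn by rank (x axis, log) and authors' pooled signal (y axis, log), with the summits of the factor genes in red. The strongest summits of Adf1 and Trl are at ranks 8 and 12, and psq is the lowest, at rank 1624.

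Trl (FBgn0013263, chr3L:14747929-14761049, minus strand, dm6) encodes the GAGA factor, a BTB-domain protein that binds GAGAG repeats and keeps promoter chromatin open. It had 3 summits in the larger pooled list, more than any other of the 10 genes. The strongest, at 14759506, had a pooled signal of 856.9 and was rank 12 of 2658, within the top 0.451% of the list. Its signal was 386.1 in replicate 1 and 464.4 in replicate 2, and the summits of the replicates lay within 6 bp of the pooled one. It stood in an intron, 1543 bp downstream of the most distal start, which has 1 of the 10 annotated transcripts, and 1544 bp upstream of the start used by 7 of them. The bases within 50 bp of that summit are shown because they carry the strongest Taf1 signal of this gene away from any annotated start. They are from the minus strand of the RefSeq release 6 assembly (dm6), chr3L:14759456-14759556, 5′ to 3′, with the 11 bases centred on the summit in capitals.
Trl intronic: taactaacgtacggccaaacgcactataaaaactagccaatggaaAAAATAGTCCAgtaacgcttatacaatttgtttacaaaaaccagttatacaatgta
The window held the TATA box letters TATAAA once, from base 25, searched on both strands. The same letters were in 20.4% of the windows of equal length directly upstream of protein-coding starts. It held no GAGAG, the motif that the product of Trl binds.

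The second Trl summit, at 14757230, was in the 5′ UTR, 106 bp downstream of a start with 1 transcript. Its pooled signal was 225.0, rank 275, and the replicates gave 116.5 and 108.1. This start was the only one of 4 at Trl with a thresholded summit within 500 bp; the start with 7 transcripts, which the gene CG42507 shares, was 732 bp away. The third summit, at 14756154, was intronic, 1182 bp downstream of the nearest start. Its pooled signal was 146.9, with 57.1 in replicate 1 and 94.73 in replicate 2. All 3 Trl summits were in both thresholded replicate lists. A further summit 595 bp downstream of the distal start had a pooled signal of 53.31 and an irreproducible discovery rate (IDR, the authors' estimate of the share of peaks that would not be found again) of 0.014 in the larger pooled ranked list and 0.12 in the smaller, both above the limit of 0.01 that the thresholded lists keep to. The nearest replicate 1 peak had a signal of 38.51 with an IDR of 0.014, and the nearest replicate 2 peak 17.06 with an IDR of 0.84.

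Dref encodes a factor that binds the DNA replication-related element TATCGATA at many housekeeping promoters. The gene (FBgn0015664, chr2L:9964147-9967229, minus strand) had no summit in the larger pooled list. Its strongest ranked peak, at 9967134, was 95 bp downstream of the only start and had a pooled signal of 60.15 with an IDR of 0.014 in the larger pooled ranked list and 0.13 in the smaller, both outside the threshold. Replicate 1 gave 21.0 (IDR 0.55) and replicate 2 gave 34.29 (IDR 0.0039), and the peak passed the threshold in replicate 2 alone, at rank 1860 of 1988. The start of RpL13, which encodes a ribosomal protein, lies head to head with that of Dref, and the pooled summit was 179 bp from it. A peak here cannot be given to either gene alone. The 83 bases between the starts are shown because the summit stands beside this pair of divergent starts. They are chr2L:9967230-9967312 of the RefSeq release 6 assembly (dm6), minus strand, 5′ to 3′, with the 1 match to CGATA, read on the other strand, in capitals.
Dref and RpL13: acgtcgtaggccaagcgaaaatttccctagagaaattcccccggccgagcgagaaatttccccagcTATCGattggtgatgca
CGATA is the core of the sites that BEAF-32 binds and lies within TATCGATA. The stretch did not hold the whole TATCGATA. CGATA was in 25.8% of upstream windows of this length and TATCGATA in 5.89%.

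Adf1 encodes a MADF-domain factor first known from the Adh promoter. The gene (FBgn0284249, chr2R:6662265-6668085, plus strand) carried the strongest summit of the 10 genes, at 6663039, with a pooled signal of 979.8 and rank 8 of 2658. Replicate 1 gave 427.5 and replicate 2 gave 593.7, and the summit was at the same base in both. It was intronic, 769 bp downstream of the start, and 921 bp from the start of Dpit47 on the other strand. The second Adf1 summit, at 6663520, was 1250 bp downstream, in the same gene and inside an exon of lncRNA:CR45128, which is transcribed from the other strand. It was weaker, with a pooled signal of 96.34, with replicate values of 45.31 and 106.7. As a ratio these differed more than at any other of the 9 summits of the larger pooled thresholded list with a value in both replicates. It was also the only 1 of these where a replicate signal was above the pooled signal, so its ratio is to be read with care. Neither Adf1 start had a thresholded summit within 500 bp in any list. Weak ranked summits stood just upstream of the start. Their signals were 34.68 at 28 bp in the smaller pooled list, 23.02 at 52 bp in replicate 1 and 13.9 at 49 bp in replicate 2. The larger pooled ranked list held none there. In pooled signal the strongest Adf1 summit had as its neighbours ph-p (1046.0) and Tcs5 (1028.0) above and CG5611 (972.6) and Art3 (942.0) below. The summits at these 4 genes lay between 109 and 497 bp from the nearest protein-coding start, closer than the 769 bp at Adf1.

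The remaining promoter factor genes are long BTB-domain genes with several starts, and their peaks were weak. psq (FBgn0263102, chr2R:10557888-10617280, plus strand) encodes Pipsqueak, which binds GAGA repeats as the GAGA factor does. Its 1 summit in the larger pooled list, at 10557851, was 37 bp upstream of the most upstream start, which has 6 of 15 transcripts. The pooled signal was 79.01, the lowest of the 9 summits, and the pooled IDR was 0.00044. Replicate 1 gave 46.22, replicate 2 had no matching peak in its ranked list, and the conservative list lacked it. Of the replicate lists, only those of replicate 1 thus held this psq peak. Some far stronger pooled peaks also had no replicate 2 match, so a missing entry does not show that signal was absent in that replicate. What replicate 2 added to the pooled psq signal of 79.01 was not tested. lola (FBgn0283521, chr2R:10481894-10543291, minus strand) encodes many zinc-finger isoforms that share a BTB domain. Its strongest pooled ranked peak, at 10542043, was 373 bp upstream of a start with 8 of 24 transcripts and had a signal of 54.87 with an IDR of 0.014 in the larger list and 0.055 in the smaller. Replicate 1 gave 22.84 and replicate 2 gave 34.02, where the peak was rank 1874 of 1988 in the thresholded list. Both genes had many peaks of low signal in the relaxed lists: psq had 35 in the larger pooled list, 23 in replicate 1 and 41 in replicate 2, and lola had 34, 36 and 15. The genes are 59.4 and 61.4 kb long. Per 10 kb of gene body, psq held 5.72 summits in the larger pooled ranked list, 3.7 in replicate 1 and 6.9 in replicate 2, and lola held 5.37, 5.7 and 2.28. Over all protein-coding genes these lists held 4.76, 2.7 and 7.13 per 10 kb, so in replicate 2 both genes were below the value over all genes.

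**Figure D3:**
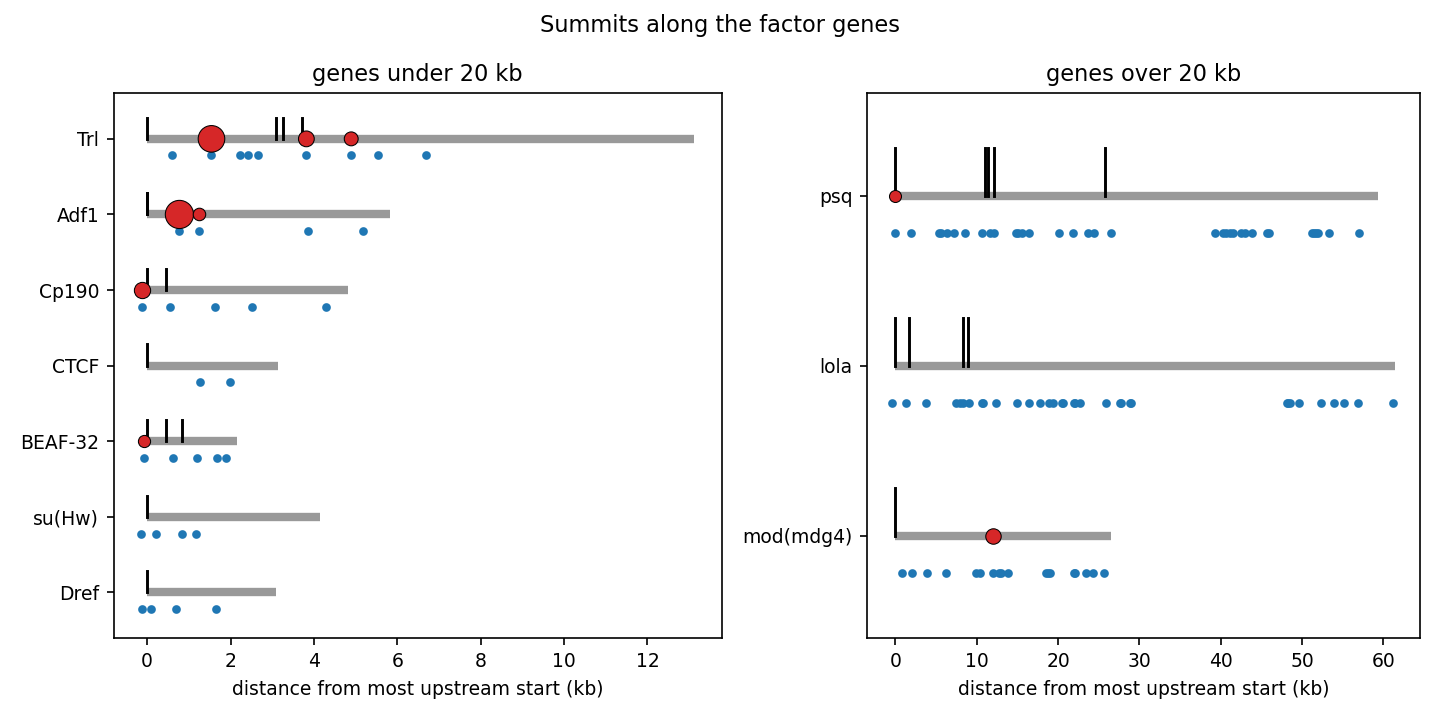
Each gene (grey bar) is drawn from its most upstream start (x axis, distance in kb, downstream to the right) with its annotated starts as black ticks, summits of the larger pooled thresholded list in red, larger for a stronger signal, and summits of the larger pooled ranked list in blue. The red summits of Trl, Adf1 and mod(mdg4) lie inside the genes, and those of Cp190, BEAF-32 and psq lie just upstream of the first start.

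Among the genes of insulator DNA-binding proteins, BEAF-32 alone had thresholded peaks. BEAF-32 (FBgn0015602, chr2R:14770469-14772630, plus strand) encodes a boundary factor that binds CGATA sites. Its summit in the larger pooled list, at 14770403, was 66 bp upstream of the first of 3 starts and 133 bp from a start of the antisense gene asRNA:CR42254, with a pooled signal of 85.41 at rank 1455. Replicate 1 gave 29.75 with an IDR of 0.17, and replicate 2 gave 63.3. The peak thus passed the threshold in replicate 2 and in both pooled lists, but not in replicate 1. A further summit, at 14771087, was 171 bp downstream of the second start, in the 5′ UTR. It had a pooled signal of 61.04 and was in the conservative list but not in the larger one: its IDR was 0.0038 in the smaller pooled ranked list and 0.75 in the larger. Its replicate signals were 43.13 and 27.09, and neither replicate's thresholded list held it.

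CTCF (FBgn0035769, chr3L:7353578-7356713, minus strand), which encodes the zinc-finger insulator protein shared with vertebrates, had no thresholded peak. Its strongest pooled ranked peak was 1263 bp downstream of the start, with a signal of 44.1 and an IDR of 0.25 in the larger list and 0.15 in the smaller. Replicate 1 gave 24.96 and replicate 2 gave 16.45 there. su(Hw) (FBgn0003567, chr3R:14304455-14308589, minus strand) encodes the zinc-finger protein that binds the gypsy insulator, and had the weakest peaks of the 10 genes. Its strongest pooled ranked peak was 22.12 with an IDR of 0.89, 1170 bp downstream of the start. Replicate 2 gave 11.4, and the ranked list of replicate 1 held no peak at this gene. The lowest signal in that replicate 1 list is 11.33, so its lack of a peak is not a difference between the replicates. Within 500 bp of the start, both pooled ranked lists held weaker summits, of 17.07 at 138 bp upstream and 15.34 at 224 bp downstream. The replicate 2 ranked list held 8.47 at 231 bp and 5.54 at 471 bp upstream. A Taf1 peak at these genes was thus not detectable in the thresholded lists, whose depth is unknown, and this does not show that Taf1 was absent.

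Cp190 encodes a BTB and zinc-finger protein that insulator DNA-binding proteins recruit. The gene (FBgn0000283, chr3R:15270432-15275241, minus strand) had the strongest promoter summit of the 10 genes, at 15275369, 128 bp upstream of the first start and 153 bp from the start of CG4338 on the other strand. Its pooled signal was 245.5, rank 240, and the replicates gave 129.0 and 118.1. Their summits were at 15275362 and 15275400, on either side of the pooled one and all within the gap between the genes. The 280 bases of this gap are shown because the summit stands between a pair of divergent starts. They are chr3R:15275242-15275521 of the RefSeq release 6 assembly (dm6), minus strand, 5′ to 3′, with the 11 bases centred on the summit in capitals.
Cp190 and CG4338: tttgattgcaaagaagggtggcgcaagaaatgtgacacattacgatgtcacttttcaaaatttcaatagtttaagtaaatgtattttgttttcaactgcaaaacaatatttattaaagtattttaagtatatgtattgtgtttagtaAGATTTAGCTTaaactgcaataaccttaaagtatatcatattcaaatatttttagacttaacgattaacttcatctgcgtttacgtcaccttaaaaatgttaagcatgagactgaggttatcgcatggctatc
The gap was poor in G and C, at 28.9%, and the bases within 50 bp of the summit were at 18.8%, the lowest of the 9 summits. It held CGATA once, from base 266 and on the other strand, as did 44.9% of upstream windows of this length. The summit cannot be given to Cp190 or to CG4338 alone.

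mod(mdg4) encodes BTB proteins that join insulator complexes, and its many isoforms are made by trans-splicing of a shared upstream part to separate downstream transcripts. The gene (FBgn0002781, chr3R:21350846-21377401, minus strand) had 22 transcripts, all from the start at 21377401, and no summit in any thresholded list lay within 500 bp of that start. Its 1 thresholded summit, at 21365416, was 11985 bp downstream, in an intron, with a pooled signal of 209.9 at rank 318. Replicate 2 gave 143.5, in its thresholded list, and replicate 1 gave 67.02. The replicate 1 peak was at rank 649 of its ranked list, but its IDR was 0.58 and the thresholded list of that replicate lacks it. The annotation places 23 pre-mod(mdg4) genes, the separate downstream transcripts, inside mod(mdg4). The starts of 10 of them were within 500 bp of the summit. Of these genes, 7 are on the plus strand and start at 21365609, 193 bp from the summit, and 3 are on the minus strand and start at 21365290 or, for pre-mod(mdg4)-E, also at 21365488, which is 72 bp away. The starts on opposite strands are 120 bases apart, and that stretch is shown because it is the nearest divergent start pair to the summit. The summit itself is not in the stretch but lies between the pre-mod(mdg4)-E starts at 21365290 and 21365488. The bases shown are chr3R:21365489-21365608 of the RefSeq release 6 assembly (dm6), minus strand, 5′ to 3′. They have no capitals since none of the 8 motifs searched was found in them.
pre-mod(mdg4) gap: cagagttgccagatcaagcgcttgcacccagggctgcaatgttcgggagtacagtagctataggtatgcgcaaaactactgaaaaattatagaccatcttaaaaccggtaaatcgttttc
No thresholded summit lay within 500 bp of the starts of the other pre-mod(mdg4) genes. The ranked lists held weak peaks there, with signals of 16.24 at the pre-mod(mdg4)-AA start in the larger pooled list, 13.19 at the pre-mod(mdg4)-B start in replicate 1 and 6.771 at the pre-mod(mdg4)-T start in replicate 2. With pre-mod(mdg4) starts counted as those of mod(mdg4), a choice made after seeing the data, 5 of 10 genes had a promoter summit.

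**Figure D4:**
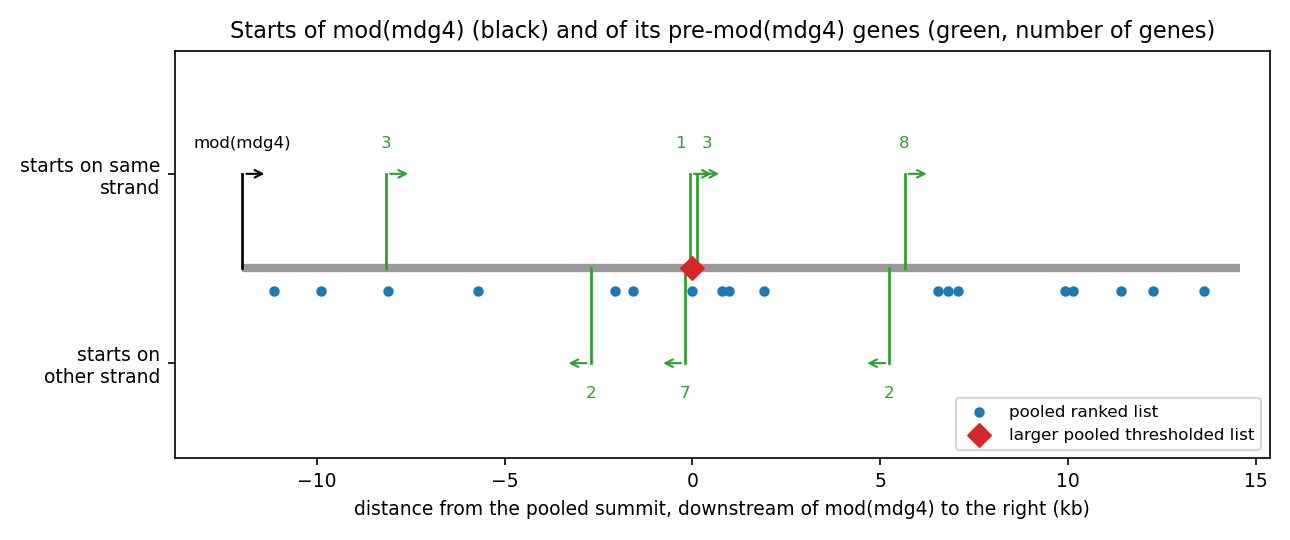
The mod(mdg4) gene (grey bar) is drawn with its own start (black arrow), the starts of the pre-mod(mdg4) genes (green arrows, with the number of genes at each) and Taf1 summits by distance from the thresholded summit in kb. The thresholded summit (red) lies beside the starts of 10 of 23 pre-mod(mdg4) genes and 11985 bp from the start of mod(mdg4).

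Of the 9 summits, 6 (66.7%) overlapped a peak of both thresholded replicate lists, against 1077 of 2658 peaks (40.5%) in the whole list. Those 6 were the summits of Trl, Adf1 and Cp190, 3 genes in all. Each of the 6 had a pooled signal above 90.65, the median of the list. The members were chosen with the pooled signals known, so the 2 shares are a description only. BEAF-32 and mod(mdg4) were thresholded in replicate 2 alone and psq in replicate 1 alone. Set over replicate 1 on the log2 scale, the replicate 2 signal differed by a median of 0.60 at the 8 summits with a value in both ranked lists, from −0.13 at Cp190 to 1.24 at the second Adf1 summit. Over the 2505 peaks of the whole list with both values the median was 0.16, and the range from the 5th to the 95th percentile was −0.93 to 1.12. The second Adf1 summit lay above that range, and the others lay within it, mod(mdg4) at 1.1 and BEAF-32 at 1.09 close to its upper end.

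**Figure D5:**
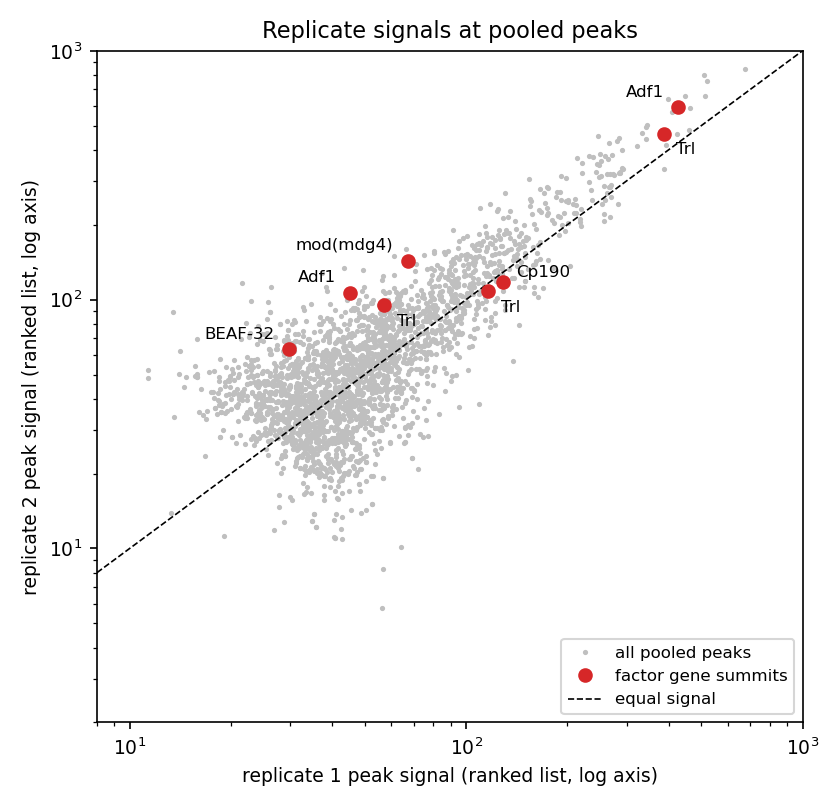
Peak signal in replicate 1 (x axis, log) and replicate 2 (y axis, log) is shown for the pooled peaks with a value in both ranked lists, with the factor gene summits in red and a line of equal signal. The strongest Adf1 and Trl summits are at the top in both replicates. BEAF-32, mod(mdg4) and the second Adf1 summit stand furthest above the line among the red points. Only Cp190 and the promoter summit of Trl lie below it.

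Gene length bears on the gene body counts. Together the 10 genes span 183.6 kb and held 0.327 gene body summits per 10 kb in the larger pooled list, against 0.169 over all protein-coding genes. The densities were 0.381 against 0.137 in the conservative list, 0.272 against 0.0809 in replicate 1 and 0.436 against 0.124 in replicate 2. In the relaxed lists the density was 6.21 against 4.76 in the larger pooled list, 4.96 against 3.93 in the smaller pooled list and 4.79 against 2.7 in replicate 1. In the ranked list of replicate 2 it was lower than over all genes, at 5.34 against 7.13. Trl (2.29 per 10 kb) and Adf1 (3.44 per 10 kb) held 5 of the 6 gene body summits of the larger pooled list, and mod(mdg4) the other, at 0.377 per 10 kb.

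The sequence under the summits was searched for 8 motifs, which do not include a site for all of the encoded proteins. In windows reaching 50 bp to either side of the 9 summits, searched on both strands, GAGAG (GAGA factor), TATCGATA (Dref), CGATA (BEAF-32), GGTCACAC (Ohler motif 1) and GAGAGAG were in none. GAGAG lies within GAGAGAG, and CGATA within TATCGATA. Over all 2658 summits GAGAG was in 9.29%, TATCGATA in 1.66%, CGATA in 14.8%, GGTCACAC in 0.564% and GAGAGAG in 1.24%. TATAAA was in 2 windows, at the strongest summits of Trl and Adf1, against 22.6% of all summits. The E-box CAGCTG was in the window of the second Adf1 summit (2.86% of all summits), and AGGGG, a core of CTCF sites, in that of the promoter summit of Trl (7.83%). In windows of the same length at protein-coding starts the shares were 11.5% for GAGAG, 5.57% for TATCGATA, 25.6% for CGATA, 5.6% for GGTCACAC, 1.21% for GAGAGAG, 17.1% for TATAAA, 9.24% for CAGCTG and 4.9% for AGGGG. At the shares seen over all summits, few or no matches are to be found among 9 windows. The absences therefore do not set the member summits apart, and the counts are descriptions only. The median GC content of the 9 windows was 32.7%, close to the 31.7% of all summits and below the 43.6% at protein-coding starts, and it ranged from 18.8% at Cp190 to 49.5% at psq.

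Further genes of the same kinds were taken from 3 lists, which were drawn up with earlier results of these data known. Of 40 such genes, 9 (22.5%) had a promoter summit in the larger pooled list, where the share over all protein-coding genes is 13.2%. Among 19 insulator partners there were 4: Chro, a chromodomain protein of open interbands (582.3), shep, an RNA-binding protein that acts on insulators (124.9), pita, a zinc-finger insulator protein (87.82), and pzg, a zinc-finger partner of Chro (58.55). Among 12 promoter DNA-binding factors there were 3: gfzf (88.55), phol, which binds Polycomb response elements (67.4), and M1BP, which binds motif 1 (54.19). Among 9 BTB-domain factors there were 2: lolal, a small partner of the GAGA factor (66.46), and fru, the sex determination factor (64.62). In the replicate 1 thresholded list 3 of the 40 (7.5%) had a promoter summit, close to the 7.23% of all protein-coding genes. In that of replicate 2 there were 8 of the 40, where 10.6% of all protein-coding genes had one. Chro, shep and gfzf had a promoter summit in all 4 thresholded lists. The pzg summit was in the larger pooled list alone, that of phol was in neither replicate's list, and that of M1BP was not in the conservative list. fs(1)h had none in the larger pooled list but had one in the conservative list (66.62) and in replicate 2 (35.88). The 9 promoter signals of the larger pooled list ran from 54.19 to 582.3, and all but that of Chro were below the 245.5 at Cp190.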

How the data were processed

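Taf1-eGFP ChIP-seq peaks of whole embryos were analysed for 2 biological replicates, whose chromatin was sonicated to 200 to 800 bp per the labels. Coordinates are on dm6, per the labels. Neither aligner nor peak caller is given in the sources used here. The labels point to a possible control experiment, which was not analysed here. The authors deposited 8 lists: a ranked and a thresholded list for each replicate, and for the pooled reads a larger and a smaller ranked list, a conservative thresholded list and a larger one, on which the main results rest. Peak signal is the authors' deposited value, on a scale not stated, and serves here to describe and rank peaks. The ranked lists hold the deposited −log10 of the global IDR, capped at 5, and every peak of the thresholded lists on a chromosome arm had an IDR of at most 0.01. A further 4 columns of per-sample signal in the pooled ranked files were not used. Depth is unknown, so no counting interval is given.

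Peaks off the arms (7 of the larger list) were left out. Genes and starts came from Ensembl release 115 and sequence from the RefSeq assembly of release 6. A pooled peak was matched to a replicate peak by an overlap of 1 bp. The members and lists were chosen with earlier results of these data known, so no test was run and no p-value is given. The genes named are the 10 members and genes with a start near a member summit or containing one. Related genes with a promoter or gene body summit in a pooled thresholded list are named too. So are the genes at the 2 summits above and the 2 below the strongest member summit. The alternatives were the conservative list, a global IDR of 0.001, each replicate alone, windows of 250 and 1000 bp, nearest-start assignment, other overlap rules and motif windows, and, added after seeing the data, pre-mod(mdg4) starts counted as mod(mdg4). Functions were tested on simulated peaks. Scripts ran in Python 3.11.15 (pandas 2.3.3, numpy 2.4.6, matplotlib 3.10.9).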

Additional observations from a re-analysis of the deposited data

How the results depend on the processing

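Of 23 alternative values of the counts, 22 stayed within 1.5 times the value reported. The exception was the count of genes with a gene body summit, which was 3 in the larger pooled list and ran from 2 without replicate 2 to 5 without replicate 1, where Dref and lola entered through replicate 2 alone. Without a replicate means the thresholded list of the other, since the pooled list could not be recomputed. The count of genes with a promoter summit ran from 3 to 5 and that of summits from 7 to 10 in the same settings. Of the alternative values for single genes, 53 were as reported and 7 moved, all at BEAF-32, mod(mdg4), Dref, psq or lola. No paired analysis was possible because there was 1 group and no comparison between groups. Depth, which the files do not give, limits what can be said of CTCF, su(Hw), Dref and lola.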

Other observations

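Near the genes described, 2 summits of the larger pooled list lay just outside the promoter windows and the gene bodies. One, with a pooled signal of 136.1, was 1367 bp upstream of the start of mod(mdg4) and 209 bp upstream of the start of tin, the homeobox gene of heart and mesoderm. The other, with a pooled signal of 65.33, was 1486 bp upstream of lola and 148 bp from the end of lncRNA:acal, a long noncoding RNA.

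Among the related genes, a few had gene body summits and no promoter summit in the larger pooled list, as Adf1 and mod(mdg4) did. These were br, a BTB-domain factor of metamorphosis, with a summit of 134.1 (63.0 in replicate 1 and 68.01 in replicate 2), grh, an epithelial factor, with 96.32 at 2053 bp downstream of the nearest start, and bab2, a BTB-domain factor of leg and ovary, with 65.61 at 25408 bp. The br summit passed the threshold in both replicates, and the grh and bab2 summits in neither.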
